A study of Homo sapiens with 4 samples.

Results

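The expression of 10 nuclear receptor genes was examined in MDA-MB231 breast cancer cells with and without PIAS1 knockdown. The genes were ESR1, NR2F1, NR2F2, ESRRA, RARA, RARB, RXRA, VDR, NR3C1 and PPARG, and every probe set was taken that the platform's gene table lists under 1 of these symbols alone. This gave 32 of the 22277 probe sets on the array, for 9 of the 10 genes. NR2F2, which encodes the COUP-TFII orphan receptor, had no probe set listed under its symbol alone and was not analysed here. RNA came from 4 cultures kept for 30 h. Cells with a control shRNA or with PIAS1 shRNA2 were grown either in DMEM containing 10% FBS or in serum-free SCM, to which EGF, basic FGF, insulin and albumin are added. Both shRNA lines carry a lentiviral vector with a U6 promoter and were selected with puromycin. Whether either line is a single clone is not given in the sources used here. Only 1 hairpin against PIAS1, a SUMO ligase, was measured on arrays. SCM differs from DMEM in serum, base medium and growth factors at once, and these cannot be told apart. MDA-MB231 is a human breast cancer line known to lack estrogen receptor alpha.

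A single Affymetrix human genome array was run for each condition, so every ratio below compares 1 array with 1 other and carries neither an error nor a p-value. The values are MAS5 signals, linear array intensities that stand for a probe set. They cannot be set against those of another probe set as amounts of RNA. Across probe sets they served to set the floor, to pick the brightest of a gene and to name dim ones. A signal of 184 was used as the background floor, derived from genes of other tissues, and between 64.5% and 68.2% of all probe sets reached it on an array. Signals below the floor were raised to it before a ratio was taken, so a ratio with 1 signal under the floor is a lower bound on the difference. A probe set was called when its ratio was at least 2-fold. The 4 comparisons share arrays in pairs and are not independent. On the 3 PIAS1 probe sets, the signal in PIAS1 shRNA2 cells was between 23.1% and 37.0% of control in DMEM and between 31.5% and 77.9% in SCM. The labelled cell type was checked on markers. All 7 measured markers of mesenchymal breast cancer lines, among them VIM and CD44, reached the floor on all 4 arrays. Of 12 luminal breast markers, each read from its brightest probe set, 9 did so as well. These were GATA3, KRT8, KRT18, KRT19, ERBB3, TFF1, XBP1, AGR2 and, on 215551_at alone, ESR1. FOXA1, PGR and CDH1 stayed below the floor on every array.

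Nuclear receptors are transcription factors that bind short DNA elements through a pair of zinc fingers and, in most members, are switched by a small lipophilic ligand. Estrogen receptor alpha, encoded by ESR1, and the glucocorticoid receptor, encoded by NR3C1, bind DNA as homodimers, whereas the retinoic acid receptors (RARA, RARB), the vitamin D receptor (VDR) and PPARG pair with the retinoid X receptor RXRA. NR2F1, also known as COUP-TFI, and ESRRA are orphan receptors, for which no classical hormone is known. In breast cancer ESR1 separates luminal from basal disease, and PIAS proteins are known as SUMO ligases for several steroid receptors.

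Receptors that pair with RXRA recognise repeats of the hexamers AGGTCA or AGTTCA, and the promoters of some receptor genes hold such sites themselves. The bases in front of a transcript start are shown for NR2F1 and RARA, the genes called in the most comparisons, and for RARB, a textbook target of retinoic acid receptors. Each sequence is RefSeq, build GRCh38.p14, plus strand, 250 bases ending just before a start. Of genes with several starts, 1 whose window holds a hexamer is shown. Capitals mark AGGTCA or AGTTCA on either strand and both arms of the repeat described next.
NR2F1 (chr5:93582972-93583221): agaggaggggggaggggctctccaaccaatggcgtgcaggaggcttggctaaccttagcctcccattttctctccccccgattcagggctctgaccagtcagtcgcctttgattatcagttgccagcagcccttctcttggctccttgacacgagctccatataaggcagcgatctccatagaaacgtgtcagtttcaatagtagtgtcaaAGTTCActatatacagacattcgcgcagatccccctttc
RARA (chr17:40308930-40309179): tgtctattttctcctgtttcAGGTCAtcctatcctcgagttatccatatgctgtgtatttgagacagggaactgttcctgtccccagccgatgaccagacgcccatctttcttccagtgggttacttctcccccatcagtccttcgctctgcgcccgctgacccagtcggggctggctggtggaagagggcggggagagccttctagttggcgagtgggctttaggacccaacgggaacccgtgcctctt
RARB (chr3:25428013-25428262): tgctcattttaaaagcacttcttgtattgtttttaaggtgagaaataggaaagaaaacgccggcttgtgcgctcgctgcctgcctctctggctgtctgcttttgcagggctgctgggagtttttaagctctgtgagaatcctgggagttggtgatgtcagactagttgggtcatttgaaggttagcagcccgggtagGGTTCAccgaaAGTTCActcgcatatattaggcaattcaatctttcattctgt
In RARB the capitals form a direct repeat of GGTTCA and AGTTCA with 5 bases between its arms, the arrangement known for retinoic acid response elements. The letters of this repeat were taken from RARB itself, so its presence there is no finding. Searched on both strands, it was found in 6 of 34943 promoter windows, or 0.0172%, and among the 33 windows of 9 of the 10 genes only in this one. VDR was not in the table. At least 1 of the hexamers AGGTCA and AGTTCA was found in 19.7% of all windows. The windows of NR2F1 and RARA shown each hold 1 hexamer, 39 and 230 bases before the start. As windows with a hexamer were chosen for display, its presence in them is no finding. The RARA windows that end before the starts at 40318245 and 40342166 hold 0. All hexamers marked are matches of letters only, and no binding was measured in these data.

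Counted over probe sets, 2 of the 20 receptor probe sets that reached the floor in DMEM were at least 2-fold higher with PIAS1 shRNA2, those of NR2F1 and RARA (216300_x_at), and 0 were lower. The background in DMEM was 1.59% higher and 0.999% lower of 13714 probe sets. In SCM, 1 of 22 was higher, that of NR2F1, and 0 were lower, against 2.01% and 1.65% of 14247 probe sets. Between media with control shRNA, 6 of 22 were higher in SCM, 4 of RARA and 1 each of NR2F1 and ESR1, and 0 were lower, against 11.0% and 10.3% of 14041 probe sets. With PIAS1 shRNA2, 2 of 23 were higher in SCM, those of NR2F1 and RARA (203750_s_at), and 0 were lower, against 10.7% and 10.4% of 14215. With so few members and shared targets, these counts are a description. Calls were more frequent among dim probe sets in the knockdown comparisons. Where the brighter signal lay between the floor and 734, 3.49% were called higher in DMEM and 2.94% in SCM, against 0.788% and 1.58% of brighter ones. The median log2 ratio of the receptor probe sets was 0.05 in DMEM and -0.18 in SCM for PIAS1 shRNA2 over control shRNA, and 0.46 and 0.28 for SCM over DMEM with control shRNA and PIAS1 shRNA2. Over all probe sets that reached the floor these medians lay between -0.02 and 0.04.

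**Figure D1:**
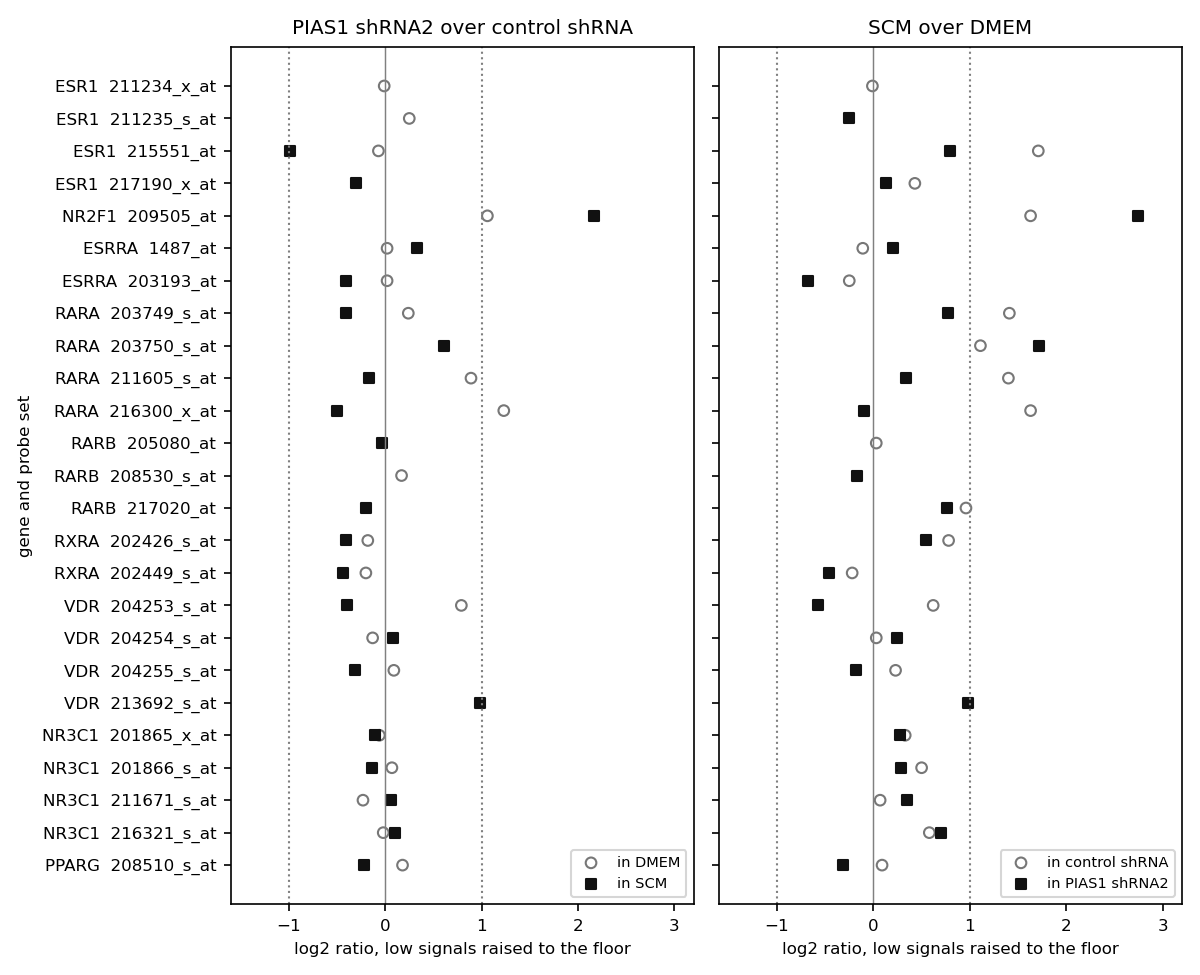
Log2 ratio (x axis) of the 25 receptor probe sets that reached the floor on at least 1 array (y axis), for PIAS1 shRNA2 over control shRNA on the left and SCM over DMEM on the right, each from 2 arrays with low signals raised to the floor. Open circles are DMEM (left) or control shRNA (right), filled squares are SCM (left) or PIAS1 shRNA2 (right), pairs with both signals under the floor are left out, and dotted lines mark 2-fold; NR2F1 lies beyond the right line in all 4 comparisons.

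NR2F1, a regulator of neural and neural crest development, was at least 2-fold higher in all 4 comparisons, and no other receptor among the 9 was. On its only probe set, 209505_at, the NR2F1 signal in DMEM was 191 in control and 397 in PIAS1 shRNA2 cells. The SCM arrays gave 590 and 2659 for the same lines. The array of PIAS1 shRNA2 cells in SCM was therefore the highest of the 4, and the control array in DMEM the lowest, just above the floor. NR2F1 was 2.08-fold higher with PIAS1 shRNA2 in DMEM and 4.50-fold higher in SCM. The change of medium also went with a higher NR2F1 signal, by 3.09-fold in control shRNA cells and 6.70-fold in PIAS1 shRNA2 cells. On the log2 scale the knockdown ratio of NR2F1 was 1.12 larger in SCM than in DMEM, a difference that could not be tested with 1 array per condition. The ratios against the dim DMEM array of control cells depend on the floor. The floor was also raised to 389, the 95th rather than the 75th percentile of the background genes. The log2 ratio of NR2F1 in DMEM was then 0.03 instead of 1.06, and after quantile normalization it was 0.90. After scaling to a common median, NR2F1 fell just short of a call in DMEM as well. The log2 ratio of NR2F1 between media in control cells was 0.60 at that floor instead of 1.63, and 0.00 with the floor at 605, the highest array median. The log2 ratio of the knockdown in SCM lay between 2.14 and 2.24 under every alternative.

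Across the 8939 genes that reached the floor on at least 2 arrays, RGS2, HEY1 and GJA1 had the pattern closest to NR2F1. Likeness was measured over the 4 arrays as the Euclidean distance between log2 signals, with low signals raised to the floor and each gene centred on its own mean, and was 0.34 for RGS2, 0.45 for HEY1 and 0.56 for GJA1. RGS2, a regulator of G protein signalling, read 255 and 624 in DMEM and 806 and 2987 in SCM, with control shRNA first. HEY1, a Notch target, read 210 and 384 in DMEM and 489 and 1922 in SCM. GJA1, which encodes a gap junction protein, read 655 and 1020 in DMEM and 1987 and 5726 in SCM. Each of these genes thus had the order of the arrays seen for NR2F1. As they were chosen for their likeness to NR2F1, this shared order is no finding.

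ESR1 stayed at or near background on most of its 9 probe sets. Of these, 5 were under the floor on all 4 arrays (205225_at, 211233_x_at, 211627_x_at, 215552_s_at and 217163_at), with signals between 11.6 and 171. On 205225_at, for instance, ESR1 read 156 and 116 in DMEM and 158 and 171 in SCM, with control shRNA first. The brightest, 215551_at, was the only one above the floor on every array. Its ESR1 signal in DMEM was 216 in control and 206 in PIAS1 shRNA2 cells, and in SCM 706 and 357. The control shRNA array in SCM thus stood alone, and this single array enters both the medium ratio and the knockdown ratio. On 215551_at, ESR1 was 1.98-fold lower with PIAS1 shRNA2 in SCM, just short of a call, and its log2 ratio of -0.99 was -1.06 after quantile normalization, -0.86 with the floor at 389, -0.22 with the floor at 605 and -0.14 as the mean of all ESR1 probe sets. It was 3.26-fold higher in SCM than in DMEM with control shRNA and 1.73-fold higher with PIAS1 shRNA2. The log2 ratio of 1.71 between media in control shRNA cells was 0.86 with the floor at 389 and 0.24 as the mean of all ESR1 probe sets. The study's authors reported ESR1 as strongly induced by PIAS1 knockdown, and as undetected by quantitative PCR in control shRNA cells. On 215551_at no such rise was seen.

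The same order of the SCM arrays, with smaller ratios, was seen on 1 further ESR1 probe set. On 217190_x_at, the only other one above the floor in SCM, the ESR1 signal was 247 in control and 200 in PIAS1 shRNA2 cells, and both DMEM signals, 123 and 136, were under the floor. In SCM, ESR1 was there 1.23-fold lower in PIAS1 shRNA2 cells. It was at least 1.34-fold and 1.09-fold higher in SCM than in DMEM in the respective lines. On 211235_s_at, ESR1 reached the floor only with PIAS1 shRNA2 in DMEM, where it read 218 against 39.1 with control shRNA, at least 1.19-fold higher, and 44.0 and 27.8 in SCM. On 211234_x_at it reached the floor only with control shRNA in DMEM, at 185 against 51.0. Single arrays near the floor thus pointed to opposite sides in the same medium. Genes whose 4-array pattern was closest to that of 215551_at were PBX2, a homeodomain factor, at a distance of 0.11, POU6F1, a POU domain factor, at 0.12, and FA2H, a fatty acid hydroxylase, at 0.22. PBX2 read 827 and 756 in DMEM and 2418 and 1305 in SCM. POU6F1, which like ESR1 is dim, read 148 and 129 in DMEM and 563 and 309 in SCM, and FA2H read 119 and 10.3, and 518 and 312. The DMEM signals of POU6F1 and FA2H are under the floor and entered the distance at the floor.

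**Figure D2:**
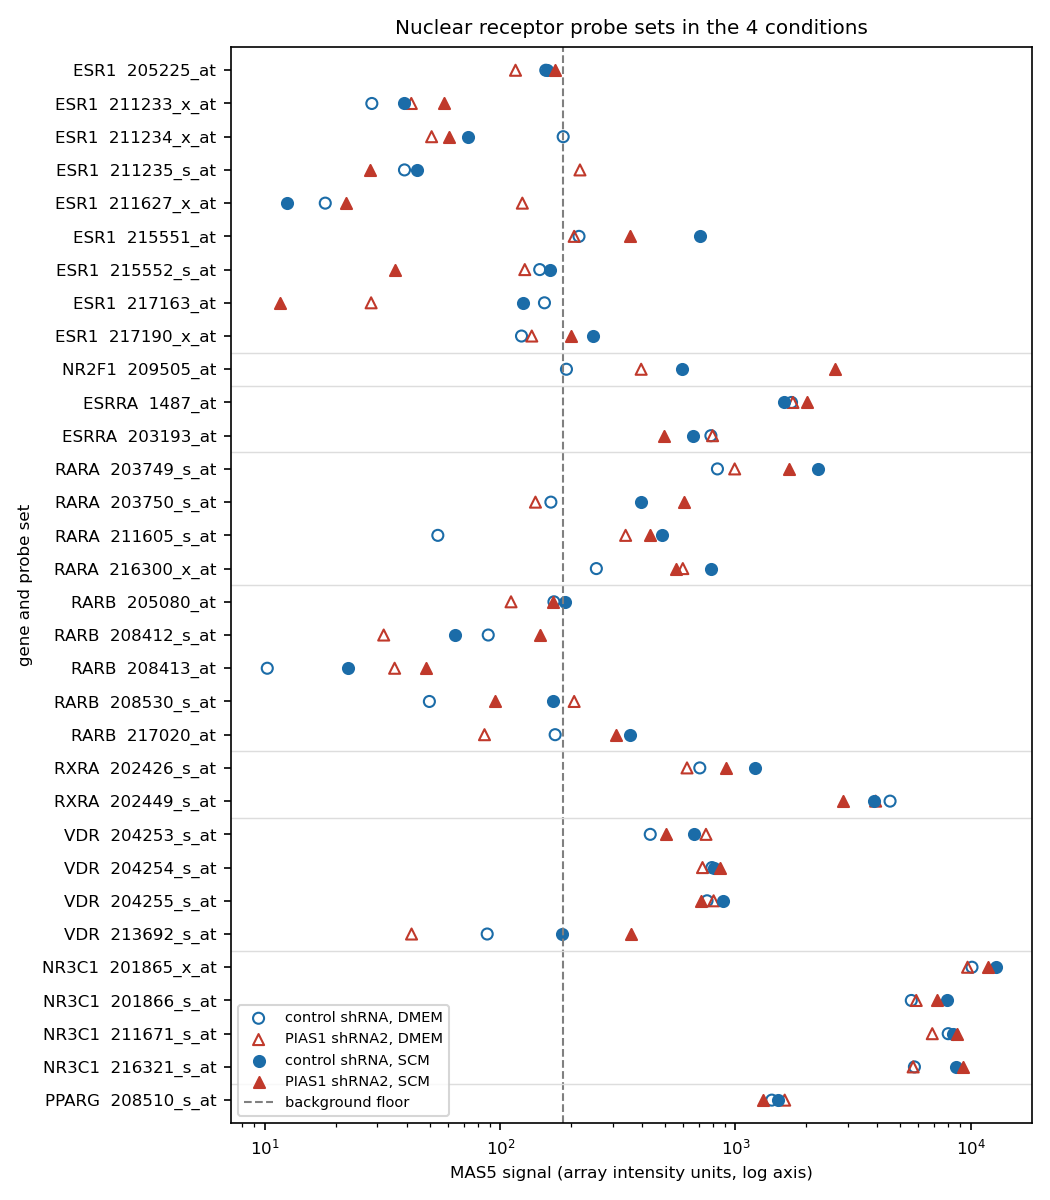
MAS5 signal (x axis, array intensity units, log scale) of all 32 probe sets of the 9 measured receptor genes (y axis), 1 array per condition and no error bars. Control shRNA arrays are drawn as circles and PIAS1 shRNA2 arrays as triangles, with open symbols for DMEM, filled ones for SCM, and the dashed line is the floor of 184; the filled triangle of NR2F1 at 2659 lies far to the right of its other points, while 5 of the 9 ESR1 probe sets stay left of the line.

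Among the retinoid receptors, RARA had higher signals in SCM than in DMEM in control shRNA cells on all 4 of its probe sets. On the brightest, 203749_s_at, the RARA signal in DMEM was 838 in control and 992 in PIAS1 shRNA2 cells, and in SCM 2236 and 1687. Both SCM arrays were above both DMEM arrays, and RARA was 2.67-fold higher in SCM with control shRNA and 1.70-fold higher with PIAS1 shRNA2. On 203750_s_at it read 164 and 141 in DMEM, both under the floor, and 397 and 606 in SCM, at least 2.16-fold higher with control shRNA and at least 3.30-fold higher with PIAS1 shRNA2. On 211605_s_at the control shRNA signal in DMEM was 54.2, against 341 with PIAS1 shRNA2, 486 in SCM with control shRNA and 432 in SCM with PIAS1 shRNA2. The lone low array was thus control shRNA in DMEM, and the same was seen on 216300_x_at.

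Between the lines, the RARA ratio differed from probe set to probe set. On 216300_x_at, RARA read 256 in control and 597 in PIAS1 shRNA2 cells in DMEM, 2.34-fold higher, and 789 and 556 in SCM, 1.42-fold lower. On 203750_s_at it was 1.53-fold higher with PIAS1 shRNA2 in SCM. On 203749_s_at it was 1.18-fold higher in DMEM and 1.33-fold lower in SCM. The log2 ratio in SCM thus ranged from -0.50 to 0.61 over the RARA probe sets, and no direction can be given for the gene in SCM. In DMEM, 203750_s_at was under the floor in both lines, and the others were higher with PIAS1 shRNA2, 211605_s_at by at least 1.86-fold. These ratios share the single control array in DMEM, the lone low one on 211605_s_at and 216300_x_at. Of 84 pairs of probe sets of the same gene, counted over the 4 comparisons, 13 disagreed, that is, their log2 ratios differed by over 1 or lay at least 0.58 to opposite sides of 0; these were pairs of RARA, VDR, ESR1 and RXRA. In SCM over DMEM with PIAS1 shRNA2, the log2 ratio of RARA was 1.72 on 203750_s_at, 0.34 on 211605_s_at and -0.10 on 216300_x_at.

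RARB and RXRA showed no called ratio. RARB, whose promoter carries the direct repeat shown above, was under the floor on all arrays on 2 of its 5 probe sets, where it read between 31.9 and 147 (208412_s_at) and between 10.2 and 48.3 (208413_at). On the brightest, 217020_at, RARB read 171 and 85.6 in DMEM, both under the floor, and 357 and 311 in SCM, with control shRNA first. RARB was thus at least 1.94-fold higher in SCM with control shRNA and at least 1.70-fold higher with PIAS1 shRNA2. On 205080_at RARB read 169 and 111 in DMEM and 188 and 167 in SCM, and on 208530_s_at it read 49.9 and 206 in DMEM and stayed under the floor in SCM. Each of these reached the floor on 1 array. RXRA, the common partner, read 4544 and 3945 in DMEM and 3894 and 2866 in SCM on 202449_s_at, with control shRNA first. On 202426_s_at it read 705 and 622 in DMEM and 1210 and 910 in SCM. Both RXRA probe sets were lower with PIAS1 shRNA2 in both media, by 1.15-fold and 1.13-fold in DMEM and by 1.36-fold and 1.33-fold in SCM. They disagreed on the medium: in SCM 202426_s_at was 1.72-fold higher with control shRNA and 202449_s_at 1.17-fold lower.

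NR3C1 reached the floor on all arrays on each of its 4 probe sets, and no NR3C1 ratio reached 2-fold. On 201865_x_at the NR3C1 signal in DMEM was 10137 in control and 9707 in PIAS1 shRNA2 cells, and in SCM 12771 and 11813. On 216321_s_at it was 5768 and 5696 in DMEM, and 8652 and 9249 in SCM. The highest signal was thus found in SCM on both. On 201866_s_at NR3C1 read 5595 and 5871 in DMEM and 7933 and 7198 in SCM, and on 211671_s_at 8030 and 6870, and 8423 and 8770. The log2 ratio with PIAS1 shRNA2 lay between -0.23 and 0.07 in DMEM and between -0.14 and 0.10 in SCM over the NR3C1 probe sets. All 4 had higher signals in SCM than in DMEM in both lines, with log2 ratios between 0.07 and 0.58 with control shRNA and between 0.28 and 0.70 with PIAS1 shRNA2. The smallest of these, 0.07 on 211671_s_at, was -0.02 after scaling to a common median.

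VDR had 4 probe sets, of which 3 reached the floor on every array. On 204254_s_at the VDR signal was 794 and 724 in DMEM and 813 and 862 in SCM, with control shRNA first, and on 204255_s_at it was 757 and 807, and 885 and 714. These signals lay within 1.24-fold of each other in every comparison. On 204253_s_at, VDR read 434 in control and 749 in PIAS1 shRNA2 cells in DMEM, 1.73-fold higher, and 665 and 504 in SCM, 1.32-fold lower. On 213692_s_at only PIAS1 shRNA2 cells in SCM exceeded the floor, at 361 against 182 with control shRNA and 87.9 and 41.9 in DMEM. There the knockdown ratio of VDR in SCM was at least 1.97, on the opposite side from 204253_s_at.

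ESRRA, which encodes an orphan receptor of mitochondrial metabolism, and PPARG, the receptor of fat cell differentiation, showed small ratios. On 1487_at the ESRRA signal was 1731 and 1755 in DMEM and 1601 and 2011 in SCM, with control shRNA first. On 203193_at it was 786 and 799 in DMEM and 659 and 498 in SCM. In SCM these probe sets lay on opposite sides, with ESRRA 1.26-fold higher and 1.32-fold lower with PIAS1 shRNA2. On its single probe set, 208510_s_at, PPARG read 1427 and 1619 in DMEM and 1521 and 1304 in SCM. All 4 PPARG signals lay close together, with PIAS1 shRNA2 1.13-fold higher in DMEM and 1.17-fold lower in SCM.

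The rest of the nuclear receptor family was read for comparison, with each gene taken from its brightest probe set. Of 38 further receptor genes 30 were measured, and 12 of these reached the floor on all 4 arrays, against 8 of the 9 genes above. With PIAS1 shRNA2, NR4A1, an immediate early orphan receptor, was the only one of 16 called in DMEM, at least 2.35-fold higher with signals of 131 and 431, and 0 of 20 were called in SCM. Of the 9 genes above, read the same way, NR2F1 alone was called in DMEM and in SCM. The background over genes was 1.54% higher and 0.869% lower in DMEM, and 2.18% higher and 1.50% lower in SCM. Between media, 3 of the 9 genes above were higher in SCM with control shRNA (NR2F1, ESR1 and RARA) and NR2F1 alone with PIAS1 shRNA2, while 4 of 18 further receptors were higher with control shRNA and 0 were lower. With PIAS1 shRNA2, 4 of 19 were higher and 1 was lower. NR4A2, related to NR4A1, was 13.1-fold and 8.93-fold higher in SCM in the respective lines, THRA, the thyroid hormone receptor alpha, 3.23-fold and 2.12-fold, and PPARA, a receptor of fatty acid oxidation, 2.85-fold and 3.11-fold. PPARD was 3.17-fold and 1.91-fold higher. NR2C2, an orphan receptor, was 2.07-fold lower in SCM with PIAS1 shRNA2. Over all genes, 10.8% were higher and 10.7% lower in SCM with control shRNA, and 10.9% and 10.4% with PIAS1 shRNA2.

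Among proteins that work with the receptors, called ratios were found for chaperones between media. None of 15 measured coactivator genes, such as NCOA1, and none of the 8 corepressor genes that reached the floor, such as NRIP1, was called in any comparison. Median log2 ratios with PIAS1 shRNA2 were 0.11 in DMEM and 0.16 in SCM for coactivators, and 0.15 and 0.03 for corepressors. For SCM over DMEM, coactivators had medians of -0.48 and -0.27 in control and PIAS1 shRNA2 cells, and corepressors had -0.01 and -0.16. Of 8 chaperone genes of steroid receptors, 3 were lower in SCM with control shRNA and 4 with PIAS1 shRNA2, with median log2 ratios of -0.77 and -0.78, where 10.7% and 10.4% of all genes were lower. FKBP4, a co-chaperone of steroid receptors, was 3.73-fold and 2.23-fold lower in SCM in the respective lines. With PIAS1 shRNA2, 0 of these 8 were called in either medium, with medians of 0.03 and 0.01.

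Known response genes were read beside their receptors, as levels only. The share of all genes called with PIAS1 shRNA2 was 1.54% higher and 0.869% lower in DMEM, and 2.18% and 1.50% in SCM. In these comparisons, 0 of 16 estrogen response genes were called in DMEM and 0 of 14 in SCM, with median log2 ratios of 0.04 and -0.03. Vitamin D response genes gave 0 of 8 and 0 of 7, with 0.09 and -0.20, and PPAR response genes 0 of 5 and 0 of 6, with 0.32 and 0.18. Of the glucocorticoid response genes, SGK1, a serum- and glucocorticoid-regulated kinase, was the only one called, 2.19-fold higher in DMEM among 11 and 2.41-fold higher in SCM among 12, with list medians of 0.05 in both. Among retinoic acid response genes, RARRES2 was 2.56-fold lower in DMEM, as 1 of 8, and 3.12-fold lower in SCM, where DHRS3, a retinaldehyde reductase, was 2.20-fold lower, which made 2 of 9. Their median log2 ratio was -0.14 in DMEM and -0.56 in SCM. Of the 6 measured genes of retinoid supply, ALDH1A3, which makes retinoic acid, read 6220 in control and 13547 in PIAS1 shRNA2 cells in SCM, 2.18-fold higher, and 1364 and 1195 in DMEM; it was called in SCM as 1 of 2, and 0 of 3 were called in DMEM.

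Between the media, called genes were found in every response list, against 10.8% of all genes higher and 10.7% lower in SCM with control shRNA, and 10.9% and 10.4% with PIAS1 shRNA2. With control shRNA, 4 estrogen response genes were higher in SCM and 1 was lower among 15, with TFF1, a secreted trefoil peptide, 11.5-fold higher. With PIAS1 shRNA2, 5 were higher and 1 was lower among 17, and TFF1 was 7.93-fold higher. CCND1, the cyclin D1 gene, was the lower one, by 6.29-fold and 6.11-fold. List medians of the log2 ratio were 0.58 and 0.12. Vitamin D response genes gave 4 of 7 and 6 of 8 higher and 0 lower in the respective lines, with IGFBP3, a binding protein of insulin-like growth factors, 10.7-fold and 11.9-fold higher. The brightest VDR probe set had ratios of 1.02 and 1.19, but the other VDR probe sets differed in direction with PIAS1 shRNA2. In the respective lines, VDR was 1.53-fold higher and 1.49-fold lower on 204253_s_at, and 1.17-fold higher and 1.13-fold lower on 204255_s_at. On 213692_s_at it was at least 1.97-fold higher with PIAS1 shRNA2 and under the floor in both media with control shRNA. Of the glucocorticoid response genes, 5 of 11 and 5 of 12 were higher, with TSC22D3, the GILZ gene, 6.27-fold and 6.26-fold higher and list medians of 0.66 and 0.63. FKBP5, a co-chaperone of the glucocorticoid receptor, was at least 3.32-fold lower in SCM with PIAS1 shRNA2, the 1 lower gene of the glucocorticoid list. The same FKBP5 ratio is counted among the lower chaperone genes above. PPAR response genes gave 3 of 6 higher in each line, with ANGPTL4, an inhibitor of lipoprotein lipase, at least 22.0-fold and 12.5-fold higher and medians of 0.91 and 1.07. Retinoic acid response genes gave 3 higher and 1 lower of 9 with control shRNA, and 1 higher and 1 lower of 8 with PIAS1 shRNA2, with CYP26B1, which degrades retinoic acid, 2.67-fold and 2.02-fold lower and medians of 0.95 and 0.45. ALDH1A3 was 4.56-fold and 11.3-fold higher in SCM, as 1 of 2 and 1 of 3 retinoid supply genes. Many of these genes respond to other signals as well, and what part the receptors have in their levels was not tested.

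**Figure D3:**
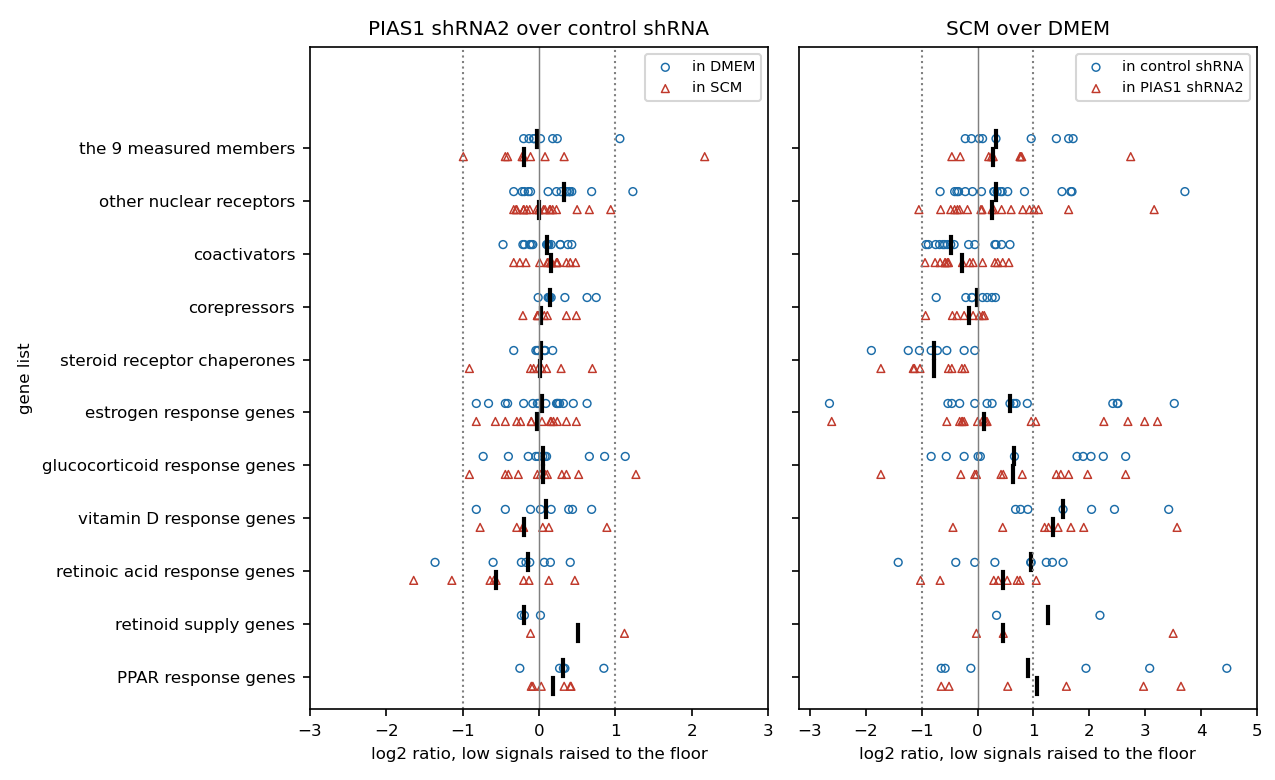
Log2 ratio (x axis) of each gene, read from its brightest probe set, in the measured receptors and in 10 lists of related genes (y axis), for PIAS1 shRNA2 over control shRNA on the left and SCM over DMEM on the right, each from 2 arrays with low signals raised to the floor. Circles are DMEM (left) or control shRNA (right), triangles SCM (left) or PIAS1 shRNA2 (right), black bars are list medians and dotted lines mark 2-fold; on the right the vitamin D response genes have medians of 1.53 and 1.35 and the steroid receptor chaperones of -0.77 and -0.78.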

How the data were processed

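Total RNA of MDA-MB231 cells was hybridised to Affymetrix human genome arrays, 1 for each of 4 conditions. The authors deposited linear signal intensities, made with MAS5 according to the submitters' processing notes. Its version, settings and detection calls were not given in the sources used here. On each array, the mean signal without the lowest and highest 2% was 2501, and the number of arrays limits the precision. Gene symbols came from the platform's annotation table. Of the probe sets, 19070 had exactly 1 symbol, 1043 had several and 2164 had none listed, and only those with 1 symbol were used. The 19058 Entrez identifiers found in RefSeq updated 0 symbols.

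The floor of 184 was the 75th percentile of the 93 probe sets that stand for 60 genes typical of other tissues, on the array where it was highest. In lists, each gene was represented by its brightest probe set, judged by mean log2 signal. Lists overlap, and some genes, among them FKBP5 and RARB, are counted in more than 1. No test was made, as each condition has 1 array. The members and lists were chosen with earlier results of these data known. All probe sets of the members were named, and of other lists at most 4 genes a comparison that were at least 2-fold different. Besides these, NCOA1, NRIP1, VIM and CD44 were given as examples, and all luminal markers were named. Alternatives were other floors, scaling to a common median, quantile normalization and the mean of probe sets. Python 3.11.15, NumPy 2.4.6 and pandas 2.3.3 were used, and the ratio step was tested on simulated data.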

Additional observations from a re-analysis of the deposited data

Results flagged for a closer look

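Among 16 receptor probe sets that reached the floor on all arrays, 2 had knockdown ratios, PIAS1 shRNA2 to control, on opposite sides between media. The size was at least 0.32 on the log2 scale in each medium. How often this occurs among all probe sets was not counted. Subtracting the log2 ratio in DMEM from that in SCM gave -1.73 for RARA on 216300_x_at and -1.19 for VDR on 204253_s_at. With 1 array per medium and line, these differences were not tested, and no other probe set of RARA or VDR met these conditions.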

How the results depend on the processing

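The counts of receptor probe sets at least 2-fold different rest on the floor. With no floor on the deposited signals, 7 were higher and 5 lower with PIAS1 shRNA2 in DMEM, 3 and 2 in SCM, 11 and 1 in SCM over DMEM with control shRNA, and 5 and 5 with PIAS1 shRNA2. With the floor at 389, 0 were higher with PIAS1 shRNA2 in DMEM, and 2 and 1 were higher in SCM over DMEM with control shRNA and PIAS1 shRNA2. With the floor at the highest array median, 605, these counts were 0, 1 and 1. Scaling to a common median and quantile normalization each left 1 higher with PIAS1 shRNA2 in DMEM, and the latter gave 1 lower in SCM. For these alternatives, neither the number of receptor probe sets tested nor the share of all probe sets called was determined. The counts given here therefore show only how calls moved with the processing, and they cannot be set against a background.

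Among the brightest probe sets no called ratio reversed. ESR1 and NR2F1 lost calls between media or in DMEM with higher floors. At the 2 floors, log2 ratios in SCM over DMEM with control shRNA were 0.86 and 0.22 for ESR1 and 0.60 and 0.00 for NR2F1. The call of NR2F1 with PIAS1 shRNA2 in DMEM was also lost without a change of floor. Its log2 ratio was 0.90 after quantile normalization and fell just short of a call after scaling to a common median. Without a floor, RARB, which is dim in DMEM, had 1.06 and 1.86 between media in the respective lines. Scaling moved the median of all probe sets by less than 0.1, and it turned the sign only of receptor ratios of at most 0.07 in size, on probe sets of ESRRA, VDR, RARB and NR3C1. No paired analysis was possible because each condition has 1 array and thus no replicate numbers to pair by. An additive fit of line and medium over the 4 arrays, which would leave 1 residual degree of freedom, was not run.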
